A study of Mus musculus with 6 samples.

Results

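The proteasome genes examined here were all genes of the count table whose symbol begins with Psma, Psmb, Psmc, Psmd, Psme, Psmf or Psmg followed by a number, without pseudogenes named -ps. The rule found 50 of 30587 rows. Of these, 49 had enough reads for a test, and Psmb11, the thymus-specific β5t subunit, did not, with 2 reads in all 6 libraries together. Psmc3ip enters by its spelling alone, since it encodes a meiotic recombination factor and not a proteasome subunit. Psme2b is a copy of Psme2 without introns. Its transcript matched that of Psme2 in 789 of 794 aligned bases (99.4%), so the values of both genes are uncertain where reads were split between them.

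The RNA came from dendritic cells grown from C57BL/6 bone marrow. WT cells (3 libraries) had the genotype Hif2a fl/fl, with floxed alleles of Epas1, the gene for HIF-2α. KO cells (3 libraries) had the genotype CD11c-Cre;Hif2a fl/fl, in which Cre is driven by the promoter of Cd11c (Itgax) and so acts in cells that express it. All 6 cultures received dimethyloxalylglycine (DMOG), which stabilises HIF α subunits, for 24 h and then the glycolipid α-GalCer for 4 h, so neither group was untreated, and the labels give neither age nor number of animals. Epas1 itself had 20.05, 22.8 and 23.8 CPM (reads as a share of the library size, scaled with TMM factors) in WT 1, 2 and 3 and 9.59, 12.7 and 11.5 CPM in KO 1, 2 and 3. It was 1.98-fold lower in KO (edgeR adjusted p = 3.45e-05). The labels do not name the floxed part of the gene, so this count checks the labels but may include transcripts of the recombined allele.

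The proteasome is the barrel-shaped protease that degrades ubiquitin-tagged proteins and makes most of the peptides shown on MHC class I. Its core, the 20S particle, has outer α rings and inner β rings, and the β1, β2 and β5 subunits (Psmb6, Psmb7 and Psmb5) hold the active sites. Interferons induce the replacement subunits β1i, β2i and β5i (Psmb9, Psmb10 and Psmb8), which form the immunoproteasome, and the activator PA28 (Psme1 and Psme2). The 19S particle caps the core, with a base of ATPases (Psmc genes) that unfold substrates and a lid that removes ubiquitin. Dendritic cells are known for a high content of immunoproteasome.

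The immunoproteasome and PA28 genes rose in KO, by 1.236 to 1.348-fold, and so did some genes of the 19S particle. No constitutive 20S gene passed the test, although 5 of the 14 rose in a fit with offsets for GC content and exonic length. Of the 49 tested members, 15 rose and 1 fell (edgeR quasi-likelihood test, Benjamini-Hochberg adjusted p under 0.05). That is 30.6% that rose, where 13.8% of all 13249 genes tested rose and 12% fell. The median log2 fold change of KO over WT was 0.12 in the tested members and -0.009 over all genes tested. Groups did not overlap in 23 members with KO on top (20.5% of all genes) and 2 with WT on top (20% of all genes). With Psmb8, Psmb9, Psmb10, Psme1 and Psme2 set aside, 10 of 44 members rose (22.7%), and 9 of 43 (20.9%) with Psme2b set aside as well. Both counts of members that rose, like the 15 above, include Psmc3ip, which is not a subunit. The members took 0.477% to 0.51% of all reads in WT libraries and 0.534% to 0.566% in KO libraries. In bulk RNA, a change in the number of cells of a type and a change in RNA per cell cannot be told apart.

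**Figure D1:**
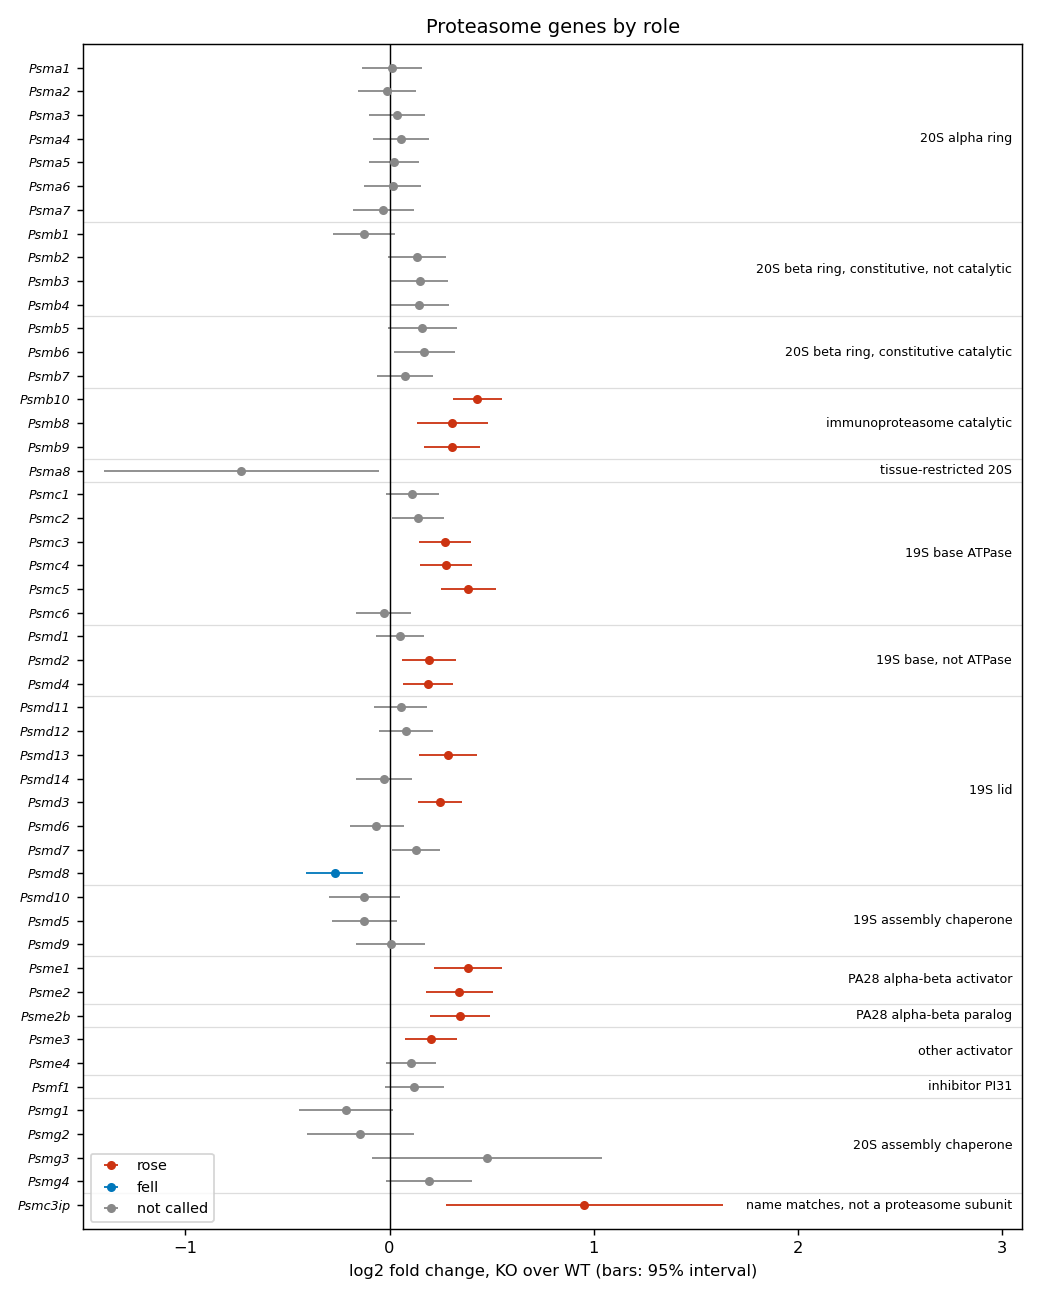
Log2 fold change of KO over WT (x axis) of the 49 tested proteasome genes, ordered by role, with bars for the 95% interval and colour for the call. The immunoproteasome and PA28 genes sit to the right of 0, the 20S α ring lies at 0, and Psmd8 is the called gene on the left.

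Total counts ran from 14668641 to 17884160 per library. WT 2 had a read in 25408 rows and KO 1 in 22275, against 18763 to 19513 in the other libraries, and fits without both are given where they change a call. WT 3 had the lowest WT value in most members. Its summed CPM over the 50 members was 4776, against 5136 and 5214 in WT 1 and 2 and 5322 to 5553 in KO. Without WT 3, the median log2 fold change of the tested members was 0.087, in place of 0.121 with all libraries. Without WT 1, and likewise without WT 2, it was 0.133. The 5 immunoproteasome and PA28 genes still rose without WT 3. Markers of the labelled cell type were present, with summed CPM of 10 dendritic cell genes at 5760 to 5930 in WT and 5240 to 5910 in KO. Of the 9 tested, 4 rose and 2 fell, where 13.8% of all genes tested rose and 12% fell. The 6 macrophage markers summed to 3230 to 3460 CPM in WT and 3260 to 3740 CPM in KO, and 2 rose, so both sets of genes are expressed in these cultures. The T cell list summed to 0.329 to 0.971 CPM and the 3 NK cell genes found in the table to 0.0548 to 0.453 CPM over all libraries. B cell genes summed to 1.09 to 1.94 CPM in WT and 1.22 to 2.43 CPM in KO, neutrophil genes to 20.7 to 30.8 and 22.1 to 33.8 CPM, and mast cell and basophil genes to 3.82 to 5.20 and 7.52 to 9.86 CPM. Of the tested genes in these lists, 2 of 3 mast cell and basophil genes rose, 1 of 3 neutrophil genes and 0 of 1 B cell genes. The part of these other cells in the proteasome results was not tested.

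To show the sequences from which these genes are read, the strand of the gene is given below from 150 bases before to 30 bases after its RefSeq start (GRCm38.p6, the assembly of mm10). Psmb8 (chr17:34198045-34198224, plus strand), Psmb9 (chr17:34187301-34187480, minus strand), Psme1 (chr14:55578344-55578523, plus strand) and Psmd4 (chr3:95042585-95042764, minus strand) are shown as members that rose. Psmb5 (chr14:54617966-54618145, minus strand) and Psmb6 (chr11:70525207-70525386, plus strand) are shown as the constitutive counterparts of Psmb8 and Psmb9. No rule chose these genes, and the call on Psmd4 was near the threshold (edgeR adjusted p = 0.0282). The motifs shown therefore do not stand for those of all members that rose or were not called. Capitals mark a match to the interferon-gamma-activated GAS element (TTCNNNGAA) in Psmb8, to the interferon-stimulated response element ISRE (GAAA, any 2 bases, GAAA, read here on the other strand) in Psme1 and Psmd4, and to the antioxidant response element ARE (TGACNNNGC), which NRF1 binds, in Psmb5 and Psmb6.
Psmb8: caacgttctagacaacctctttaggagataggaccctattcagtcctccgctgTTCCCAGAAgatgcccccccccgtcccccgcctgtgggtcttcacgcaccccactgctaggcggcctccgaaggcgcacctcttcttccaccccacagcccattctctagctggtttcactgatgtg
Psmb9: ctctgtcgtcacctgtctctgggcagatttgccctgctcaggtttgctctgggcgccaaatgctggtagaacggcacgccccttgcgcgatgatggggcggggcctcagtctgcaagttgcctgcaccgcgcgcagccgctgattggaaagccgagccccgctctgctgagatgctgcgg
Psme1: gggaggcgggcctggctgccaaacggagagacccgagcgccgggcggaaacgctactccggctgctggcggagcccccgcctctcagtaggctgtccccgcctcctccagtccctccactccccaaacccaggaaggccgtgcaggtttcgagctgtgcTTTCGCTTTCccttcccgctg
Psmd4: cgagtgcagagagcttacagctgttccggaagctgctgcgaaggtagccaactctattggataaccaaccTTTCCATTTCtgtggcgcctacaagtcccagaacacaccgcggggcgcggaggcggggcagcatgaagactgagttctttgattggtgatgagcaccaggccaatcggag
Psmb5: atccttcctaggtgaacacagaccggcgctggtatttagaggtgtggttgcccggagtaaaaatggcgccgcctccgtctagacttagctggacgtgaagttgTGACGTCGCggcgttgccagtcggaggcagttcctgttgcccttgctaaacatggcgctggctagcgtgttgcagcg
Psmb6: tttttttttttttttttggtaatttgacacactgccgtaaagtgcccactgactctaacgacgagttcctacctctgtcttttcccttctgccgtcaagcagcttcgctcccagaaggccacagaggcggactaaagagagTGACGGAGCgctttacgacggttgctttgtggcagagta

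RefSeq promoter windows of 300 bases (250 before to 50 after the start) were found for 42 of the 50 members, and each motif was searched on both strands, without overlap between motifs in the stretches shown. ISRE letters were present in 5 of these 42 members (11.9%), in Psme1, Psmd4, Psmb3, Psmd9 and Psmg4, in 3.44% of all 32851 windows and in 4.11% of the 9697 tested genes with a window. GAS letters were present in 3 members (7.14%), in Psmb8, Psmd2 and Psmg1, and in 8.30% of all windows and 8.11% of tested genes. ARE letters were present in 6 members (14.3%), against 12.4% of all windows and 17.2% of tested genes. The hypoxia response element letters ACGTG were present in 8 members (19%), among them Psmb10 and Psmb5, against 19.6% of all windows and 29.2% of tested genes. Of the 5 members with ISRE letters, Psme1 and Psmd4 rose, and Psmb3, Psmd9 and Psmg4 were not called. Psmb10 and Psme2 rose too but are not among the sequences shown, and neither had ISRE or GAS letters. Psmb9, shown without capitals, had none of the searched motifs. These matches describe the letters only, and Psmb8, Psmb9, Psme1 and Psmb5 have annotated transcripts that begin upstream of the start used here.

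Psmb10, encoding β2i with trypsin-like activity (chromosome 8, 105935735 to 105938444, minus strand, mm10), had the highest fold change of the induced genes. It stood at 100.6, 107.4 and 98.4 CPM in WT 1, 2 and 3 and at 135.7, 137.5 and 139.8 CPM in KO 1, 2 and 3. The KO libraries lay close together and well above all WT libraries. The mean rose from 102.1 ± 4.70 to 137.7 ± 2.07 CPM (SD, n = 3 each), a log2 fold change of 0.43 ± 0.06 (SE), or 1.348-fold (edgeR adjusted p = 9.1e-05).

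Psmb8, encoding β5i with chymotrypsin-like activity (chromosome 17, 34197721 to 34201454, plus strand), had 67.8, 72.8 and 58.8 CPM in WT and 89.95, 77.1 and 79.8 CPM in KO. Groups did not overlap, although KO 2 lay close to WT 2. The log2 fold change was 0.31 ± 0.08, or 1.24-fold (edgeR adjusted p = 0.0138). Psmb9, encoding β1i (chromosome 17, 34181987 to 34187764, minus strand), had 93.5, 101.7 and 89.4 CPM in WT and 121.9, 109.6 and 120.3 CPM in KO. It also rose without overlap, by 0.31 ± 0.06 on the log2 scale, or 1.24-fold (edgeR adjusted p = 0.0034). Psmb9 lies beside the peptide transporter gene Tap1 on the opposite strand and shares 212 of its 3660 exonic bases (5.8%) with it. Tap1 was 2.01-fold higher, and whether its reads enter the Psmb9 count was not tested, since the strand setting is not given in the sources used here. Psmb8 likewise shares 498 of 3381 exonic bases with the antisense gene Gm20496.

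Psme1, encoding PA28α (chromosome 14, 55578123 to 55581529, plus strand), had 171.9, 178.8 and 155.0 CPM in WT and 239.1, 200.4 and 220.3 CPM in KO. Psme2, encoding its partner PA28β (chromosome 14, 55587441 to 55591113, minus strand), had 196.3, 202.0 and 176.9 CPM in WT and 267.0, 226.6 and 235.6 CPM in KO. In both genes KO 1 was the highest library and WT 3 the lowest, and groups did not overlap. Psme1 rose by 0.38 ± 0.08 on the log2 scale, or 1.30-fold, and Psme2 by 0.34 ± 0.08, or 1.27-fold (edgeR adjusted p = 0.00267 and 0.00524). The products of these genes form one ring, and the reads of Psme1 per read of Psme2 were 0.876, 0.886 and 0.876 in WT and 0.896, 0.884 and 0.935 in KO. The copy Psme2b (chromosome 11, 48945354 to 48946190, minus strand) was called as well, 1.27-fold higher (log2 fold change 0.34 ± 0.07, edgeR adjusted p = 0.00256). Its reads per read of Psme2 ran from 0.533 to 0.571 over the 6 libraries, without a consistent difference between genotypes.

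**Figure D2:**
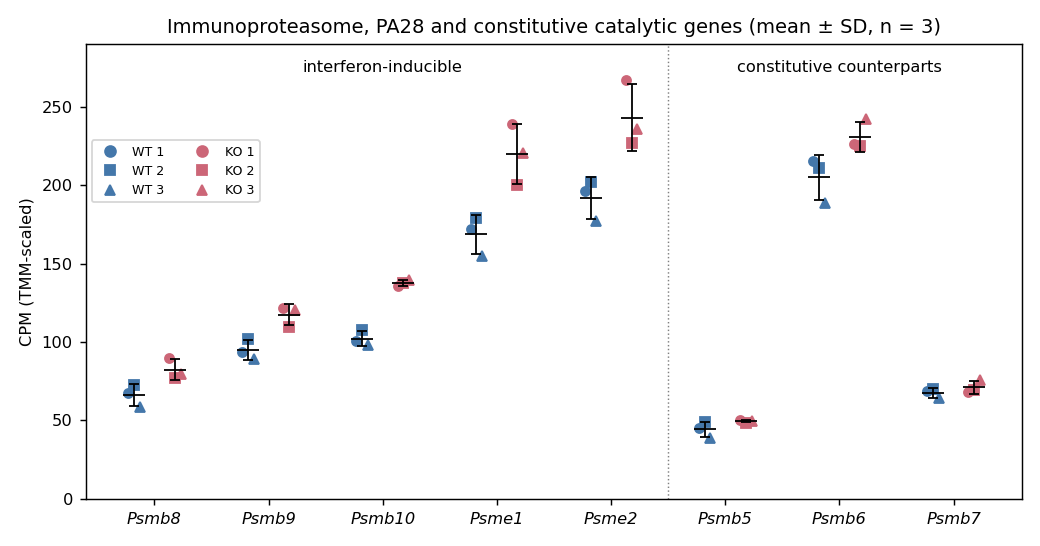
CPM (y axis) of the immunoproteasome, PA28 and constitutive catalytic genes in each of the 6 libraries, with symbols for single libraries and bars for mean ± SD (n = 3). KO libraries lie above all WT libraries in the 5 interferon-inducible genes and, among the 3 counterparts, in Psmb6.

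The constitutive catalytic genes moved less, and none was called. Psmb5, encoding β5 (chromosome 14, 54614119 to 54618022, minus strand), had 45.2, 48.8 and 39.1 CPM in WT and 50.4, 48.7 and 49.75 CPM in KO. Its log2 fold change was 0.16 (95% interval -0.009 to 0.33, edgeR adjusted p = 0.156), and groups overlapped. Psmb6, encoding β1 (chromosome 11, 70525367 to 70527858, plus strand), had 215.6, 210.8 and 188.8 CPM in WT and 226.1, 224.7 and 242.0 CPM in KO. Every KO library of Psmb6 lay above WT, at a log2 fold change of 0.17 (95% interval 0.02 to 0.32, edgeR adjusted p = 0.0833). Psmb7, encoding β2 (chromosome 2, 38588036 to 38644087, minus strand), had 68.7, 70.1 and 64.0 CPM in WT and 68.3, 69.5 and 75.96 CPM in KO, with overlap (log2 fold change 0.08, 95% interval -0.06 to 0.21, edgeR adjusted p = 0.425). Psmb7 shares 405 of 3421 exonic bases with Nek6 on the other strand.

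Each replacement subunit was next set against the subunit it displaces, as the ratio of their reads within a library, which does not depend on library scaling. The ratio of Psmb10 to Psmb7 was 1.46, 1.53 and 1.54 in WT and 1.99, 1.98 and 1.84 in KO. All KO values exceeded all WT values, and the ratio was 1.28-fold higher in KO (log2 difference 0.36 ± 0.04, SE). The ratio of Psmb8 to Psmb5 was 1.5, 1.49 and 1.5 in WT and 1.78, 1.58 and 1.6 in KO, a log2 difference of 0.14 ± 0.05, or 1.11-fold. That of Psmb9 to Psmb6 was 0.434, 0.482 and 0.473 in WT and 0.539, 0.488 and 0.497 in KO, a log2 difference of 0.13 ± 0.06, or 1.10-fold, with KO 2 just above WT 2. The exact two-sided permutation test gave p = 0.1 for each of the 3 ratios (also p = 0.1 after Benjamini-Hochberg adjustment), which is the smallest value that 3 libraries against 3 can give. Single libraries weighed on the smaller differences. Without KO 1 they were 0.09 for Psmb8 over Psmb5 and 0.09 for Psmb9 over Psmb6, and without WT 1 the latter was 0.087.

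**Figure D3:**
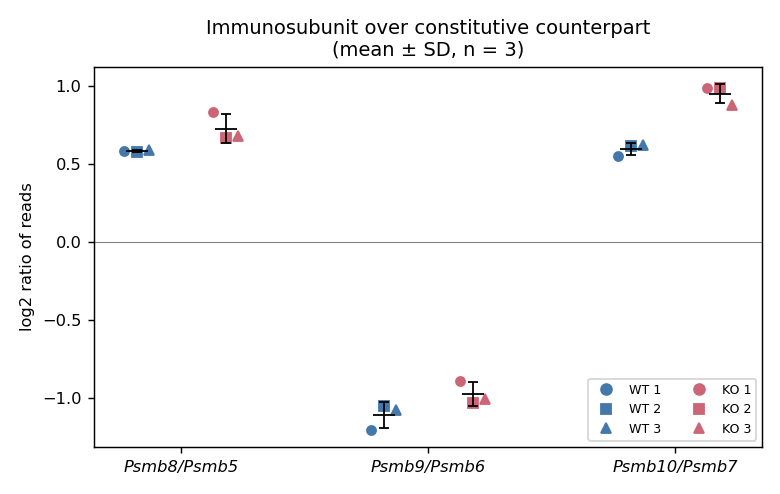
Log2 ratio of the reads of each immunosubunit gene to those of its constitutive counterpart (y axis) in each library, with mean ± SD (n = 3). KO libraries lie above WT libraries for all 3 pairs, with the widest gap for Psmb10 over Psmb7 and the narrowest for Psmb9 over Psmb6.

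Levels of different genes can be compared only per length. In CPM per kilobase of the principal transcript, Psmb10 had 77.9 ± 3.59 in WT and 105.0 ± 1.58 in KO (SD, n = 3), and its counterpart Psmb7 58.3 ± 2.73 and 61.4 ± 3.55. Psmb8 had 40.8 ± 4.36 in WT and 50.5 ± 4.16 in KO, and Psmb5 49.4 ± 5.41 and 55.2 ± 0.981. Psmb9 had 70.2 ± 4.61 in WT and 86.7 ± 4.93 in KO, below Psmb6 at 257.0 ± 17.9 and 289.4 ± 12.02. On this scale the immunosubunit transcript had the higher mean of its pair at β2 only, in both genotypes. These levels were not tested against each other. PA28 transcripts were among the most abundant members, at 199.3 ± 13.7 for Psme2 and 151.6 ± 11.03 for Psme1 in WT. The 14 constitutive 20S genes of WT ran from 29.7 for Psma3 to 257 for Psmb6, with a median of 98.5. Among them, the 7 α ring genes ran from 29.7 for Psma3 to 202.5 for Psma7, although their products occur in equal number in the particle. The length taken for a gene sets these levels. With the length of all annotated exons, chosen after seeing the data, the WT log2 level of Psmb8 over Psmb5 was -1.33 in place of -0.27, and that of Psmb10 over Psmb7 was 1.60 in place of 0.42. The order within each of the 3 pairs was as before.

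In the α ring, which gates the entrance to the core, no gene was called. The 7 genes Psma1 to Psma7 had log2 fold changes from -0.03 to 0.05, and all of their 95% intervals lay between -0.18 and 0.19. Psma4, with the lowest p of the ring, had 94.3, 100.4 and 87.8 CPM in WT and 103.4, 93.5 and 96.5 CPM in KO (log2 fold change 0.05 ± 0.06, edgeR adjusted p = 0.576). The groups overlapped in all 7 genes. Summed over the ring, CPM was 976.2, 986.4 and 878.1 in WT and 980.9, 913.9 and 962.7 in KO. By contrast, summed CPM of the 3 immunoproteasome genes was 261.9, 281.9 and 246.6 in WT and 347.5, 324.3 and 339.9 in KO.

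The remaining constitutive β genes, which encode inactive subunits of the inner rings, ran from -0.13 for Psmb1 to 0.15 for Psmb3. Psmb3, with the lowest p of these 4, had 79.3, 79.2 and 69.8 CPM in WT and 82.2, 82.3 and 88.4 CPM in KO (log2 fold change 0.15 ± 0.07, edgeR adjusted p = 0.114). Its groups did not overlap, nor did those of Psmb4. Of the 14 constitutive 20S genes, edgeR called 0, DESeq2 0 and limma-voom 0, and 3 (Psmb3, Psmb4 and Psmb6) had an unadjusted p under 0.05 in edgeR. That count depends on the treatment of gene composition. With offsets fitted to each gene's GC content and exonic length, 5 of the 14 rose, namely Psmb2, Psmb3, Psmb4, Psmb5 and Psmb6, and with scaling to library size only, 1 rose (Psmb6). No α ring gene was called under any of the 16 alternatives run. The germ-cell α subunit gene Psma8 counted 35, 29 and 38 in the WT libraries against 35, 14 and 20 in KO (log2 fold change -0.73 ± 0.31, edgeR adjusted p = 0.108). It was called lower without KO 1 (log2 fold change -1.12) and without WT 2 and KO 1 (-1.21).

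**Figure D4:**
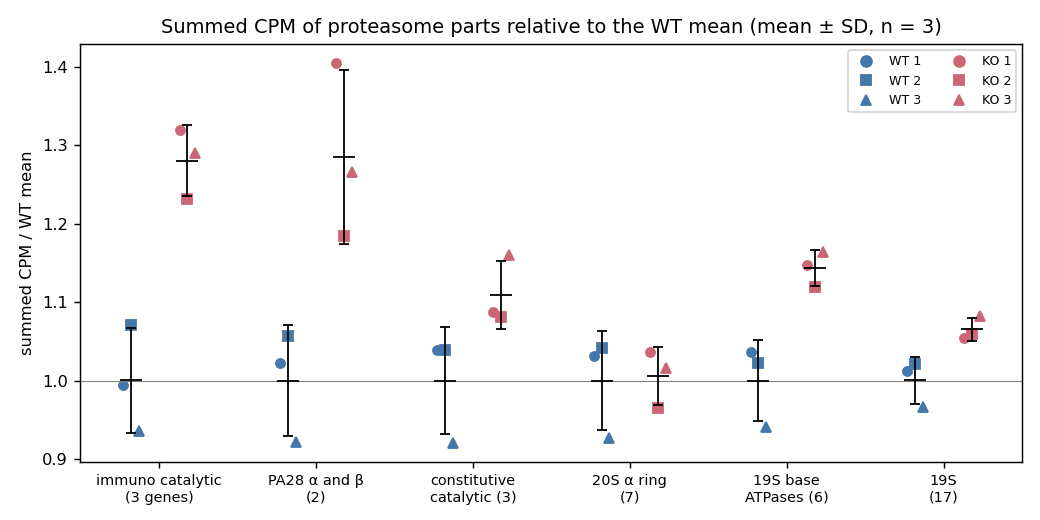
Summed CPM of the genes of each proteasome part in each library, divided by the WT mean of that part (y axis), with mean ± SD (n = 3) and the number of genes in brackets. The immunoproteasome and PA28 sums are highest in KO, the α ring overlaps between genotypes, and WT 3 is the lowest library of each part.

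Among the 17 genes of the 19S particle, 7 rose (41.2%, against 13.8% of all genes tested) and 1 fell, and the median log2 fold change was 0.13. Of the 6 base ATPases, which form the ring that threads substrates into the core, 3 rose. Psmc5 had 75.1, 73.9 and 65.7 CPM in WT and 93.5, 90.7 and 96.6 CPM in KO, a log2 fold change of 0.39 ± 0.06, or 1.31-fold (edgeR adjusted p = 0.000573). That was the highest value of the 19S genes. It lay below Psmb10 (0.43), level with Psme1 (0.38), and above Psme2 (0.34), Psmb8 (0.31) and Psmb9 (0.31). Psmc4 had 91.2, 92.1 and 83.7 CPM in WT and 112.7, 102.9 and 107.9 CPM in KO (0.28 ± 0.06, 1.21-fold, edgeR adjusted p = 0.00377). Psmc3 had 125.6, 123.6 and 112.8 CPM in WT and 145.3, 143.6 and 148.5 CPM in KO (0.27 ± 0.06, 1.21-fold, edgeR adjusted p = 0.00462). In all 3 genes WT 3 was the lowest library and no KO library fell within the WT range. Psmc3 shares 215 of 2607 exonic bases with Slc39a13 on the other strand.

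The other ATPase genes were not called. Psmc2 and Psmc1 had log2 fold changes of 0.14 and 0.11 with KO above WT in every library, and Psmc6 had -0.03 (95% interval -0.16 to 0.11). With the GC and length offsets Psmc1, Psmc2 and the lid gene Psmd7 rose as well, and with scaling to library size only Psmc2 and Psmd7 did. The ATPases of the ring are present in equal number in the particle, yet the interval of Psmc5, 0.25 to 0.52, lay wholly above that of Psmc6. No test of the difference between these genes was run.

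In the rest of the base, Psmd2, encoding the large scaffold subunit that receives ubiquitin shuttle proteins, and Psmd4, encoding a ubiquitin receptor, rose, and Psmd1 was not called (log2 fold change 0.05). Psmd2 had 312.0, 324.9 and 325.0 CPM in WT and 356.9, 369.6 and 373.2 CPM in KO (0.19 ± 0.06, 1.14-fold, edgeR adjusted p = 0.0319). Psmd4 had 139.7, 141.4 and 136.1 CPM in WT and 164.6, 155.6 and 154.8 CPM in KO (0.19 ± 0.06, 1.14-fold, edgeR adjusted p = 0.0282). Both calls were near the threshold. That of Psmd2 was lost without WT 1, KO 2 or KO 3, and that of Psmd4 without WT 1, WT 2, WT 3, KO 1, KO 3 or both WT 2 and KO 1, at log2 fold changes of 0.16 to 0.20 in all of these fits.

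The lid went both ways. Psmd13 and Psmd3, for structural subunits of the lid, rose, and Psmd8, for another, fell. Psmd3 had 85.3, 88.7 and 85.9 CPM in WT and 102.9, 102.3 and 103.2 CPM in KO, the tightest groups of the 19S genes that rose (0.25 ± 0.05, 1.19-fold, edgeR adjusted p = 0.00301). Psmd13 had 81.8, 84.4 and 72.3 CPM in WT and 99.4, 91.6 and 99.7 CPM in KO (0.29 ± 0.07, 1.22-fold, edgeR adjusted p = 0.00681). It shares 342 of 3377 exonic bases with Sirt3 on the other strand. Psmd8 (chromosome 7, 29174188 to 29180701, minus strand) had 373.8, 384.0 and 362.7 CPM in WT and 292.1, 314.2 and 323.3 CPM in KO. All KO libraries lay below all WT libraries, at a log2 fold change of -0.27 ± 0.07, which is 1.205-fold lower in KO (edgeR adjusted p = 0.00802). Per kilobase Psmd8 was the most abundant 19S transcript in WT, at 242.5 ± 6.92 CPM per kilobase against a median of 54.4 over the 17 genes. The call on Psmd8 held under all 16 alternatives, with log2 fold changes from -0.30 to -0.21. The other lid genes, Psmd6, Psmd7, Psmd11, Psmd12 and the deubiquitinase gene Psmd14, ran from -0.06 to 0.13 and were not called.

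Of the other activators and the inhibitor of the core, 1 gene was called. Psme3, encoding PA28γ, the nuclear relative of PA28, had 101.6, 100.1 and 111.2 CPM in WT and 117.9, 118.5 and 123.6 CPM in KO. It rose by 0.20 ± 0.06 on the log2 scale, or 1.15-fold (edgeR adjusted p = 0.0216), a call lost without WT 1, WT 2 or KO 3 and without WT 2 and KO 1 (0.18 to 0.19). Psme4, encoding the activator PA200, and Psmf1, encoding the inhibitor PI31, had log2 fold changes of 0.11 and 0.12, with KO above WT in every library and no call. Psmf1 had 41.2, 41.5 and 40.1 CPM in WT and 45.4, 42.05 and 46.0 CPM in KO (edgeR adjusted p = 0.21).

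No assembly chaperone gene was called. For the 19S base, the genes Psmd5, Psmd9 and Psmd10 ran from -0.12 to 0.005. Psmd5 had 52.3, 45.1 and 45.1 CPM in WT and 45.4, 42.6 and 42.8 CPM in KO, with overlap through KO 1 (edgeR adjusted p = 0.252). For the 20S core, the genes Psmg1 to Psmg4 ran from -0.21 to 0.475. Psmg1 had 13.1, 14.8 and 13.2 CPM in WT and 11.8, 10.8 and 12.8 CPM in KO, without overlap (-0.21 ± 0.11, edgeR adjusted p = 0.169). Over these 7 chaperone genes, edgeR, DESeq2 and limma-voom made 0 calls each, and 0 had an unadjusted p under 0.05 in edgeR. Psmg4 (0.19) rose in the fit without KO 2 and in that with the GC and length offsets. Intervals reached 1.04 for the sparsely read Psmg3, so changes well below that size were not detectable for that gene at this depth.

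Psmc3ip, the member that is no subunit, counted 18, 16 and 13 in the WT libraries against 43, 21 and 38 in KO. Its log2 fold change of 0.95 ± 0.31 (edgeR adjusted p = 0.0397) was not called by DESeq2 or limma-voom, nor without any one library other than KO 2 or without both WT 2 and KO 1 (0.81). Without it, 14 members rose.

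Of 11 proteasome-associated genes outside the naming rule, 2 rose and 2 fell, with a median log2 fold change of 0.003. The share that rose, 18.2%, was near that of all genes tested, 13.8%. Adrm1, encoding a ubiquitin receptor of the 19S base, rose from 128.4 ± 3.59 to 151.0 ± 3.47 CPM (SD, n = 3 each), by 1.18-fold (edgeR adjusted p = 0.00808). Zfand2a, a stress-induced zinc finger gene, rose 1.13-fold (edgeR adjusted p = 0.046), a call kept without KO 1 but lost without any other single library. AI314180, the gene of the 26S-associated protein ECM29, fell by 0.21 on the log2 scale and Zfand5, a proteasome-binding zinc finger gene, by 0.23 (edgeR adjusted p = 0.0103 and 0.0157). The call on AI314180 was lost without WT 2, KO 3 or both WT 2 and KO 1, and that on Zfand5 without WT 1, WT 2, KO 2 or KO 3. Pomp, encoding the maturation factor of the core, stood at 152.1 ± 10.6 CPM in WT and 158.8 ± 10.3 CPM in KO and was not called (edgeR adjusted p = 0.564). It was chosen after its values were seen.

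NRF1, encoded by Nfe2l1, drives transcription of proteasome genes after it is cut by DDI2 and deglycosylated by NGLY1, in pairs with small MAF proteins. Of the 6 genes of this route, 2 rose (33.3%, against 13.8% of all genes tested) and 2 fell. Mafk rose by 0.33 ± 0.08 on the log2 scale, 1.26-fold (edgeR adjusted p = 0.00687). Nfe2l1 rose from 336.0 ± 20.3 to 391.3 ± 20.6 CPM, 1.17-fold (edgeR adjusted p = 0.0327), and was not called without WT 1, WT 2, KO 2 or KO 3 or under the offset for base composition and length (0.15). Ngly1 had a log2 fold change of -0.25 and Mafg of -0.19 (edgeR adjusted p = 0.0322 and 0.0327). Both calls were kept without KO 1, and both were lost without any other single library, with scaling to library size only and with no filter on low counts. Ngly1 was also not called by DESeq2 or without both WT 2 and KO 1 (-0.28). Among 7 genes that deliver ubiquitinated proteins, 1 rose (14.3%, near the 13.8% of all genes tested), and the median log2 fold change was 0.08. The gene that rose was Nploc4, for a cofactor of the segregase p97, by 1.19-fold (edgeR adjusted p = 0.00514).

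The 7 genes listed here as regulators of immunoproteasome genes all rose (100%, against 13.8% of all genes tested). Whether each of them acts on those genes in these cells was not tested. They were listed with earlier results of these data known. Log2 fold changes ran from 0.28 for Irf2 to 4.28 for Irf7. Their median was 0.91, where the median over all genes was -0.009. Stat2 and Irf9, for subunits of the interferon-activated factor that binds ISRE elements, were 4.14 and 2.33-fold higher (edgeR adjusted p = 8.91e-09 and 5.17e-08). The 95% intervals of both genes began above 1 on the log2 scale, and that of Psmb10, the highest immunoproteasome gene, ended at 0.55. Irf1, the direct activator of Psmb9, and Nlrc5, the class I transactivator, were chosen after their values were seen. Irf1 went from 145.6 ± 4.84 to 190.2 ± 12.6 CPM, 1.31-fold (edgeR adjusted p = 0.000714), and Nlrc5 was 1.88-fold higher (edgeR adjusted p = 1.54e-05).

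In the class I peptide pathway, which takes up the products of the proteasome, 9 of 14 genes rose (64.3%, against 13.8% of all genes tested), with a median log2 fold change of 0.28. Tap1, for the peptide transporter, rose from 121.2 ± 4.97 to 244.1 ± 19.4 CPM and Tapbp, for tapasin, from 392.7 ± 21.8 to 642.4 ± 23.5 CPM (edgeR adjusted p = 2.18e-07 and 2.73e-06). The class I heavy chain genes H2-K1 and H2-D1 were 1.51 and 1.28-fold higher (edgeR adjusted p = 2.99e-07 and 5.09e-06). Tap1 and Psmb9 are neighbours, and their log2 fold changes were 1.01 (95% interval 0.86 to 1.16) and 0.31 (0.17 to 0.44). Peptidase genes of the cytosol (Lap3, Tpp2 and Nrd1), named after their values were seen, had log2 fold changes of 0.10, -0.13 and 0.10 and were not called.

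Among 8 tested genes of ubiquitin and its relatives, 3 rose (37.5%, against 13.8% of all genes tested) and 1 fell. Isg15, for the interferon-induced ubiquitin-like modifier, went from 9.96 ± 1.26 to 86.45 ± 13.2 CPM, 8.64-fold, and its activating enzyme gene Uba7 was 1.42-fold higher (edgeR adjusted p = 8.16e-10 and 3.91e-05). Uba1, for the main ubiquitin-activating enzyme, rose 1.17-fold (edgeR adjusted p = 0.0252), not called without WT 1, WT 2, KO 2 or KO 3. Rps27a, one of the genes for ubiquitin fused to a ribosomal protein, fell by 0.31 on the log2 scale (edgeR adjusted p = 0.0138), not called without WT 2, KO 2 or KO 3. Its many processed copies make that value uncertain. Ubb, a polyubiquitin gene chosen after its values were seen, stood at 1410 ± 117.5 CPM in WT and 1397 ± 39.9 CPM in KO (edgeR adjusted p = 0.899).

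**Figure D5:**
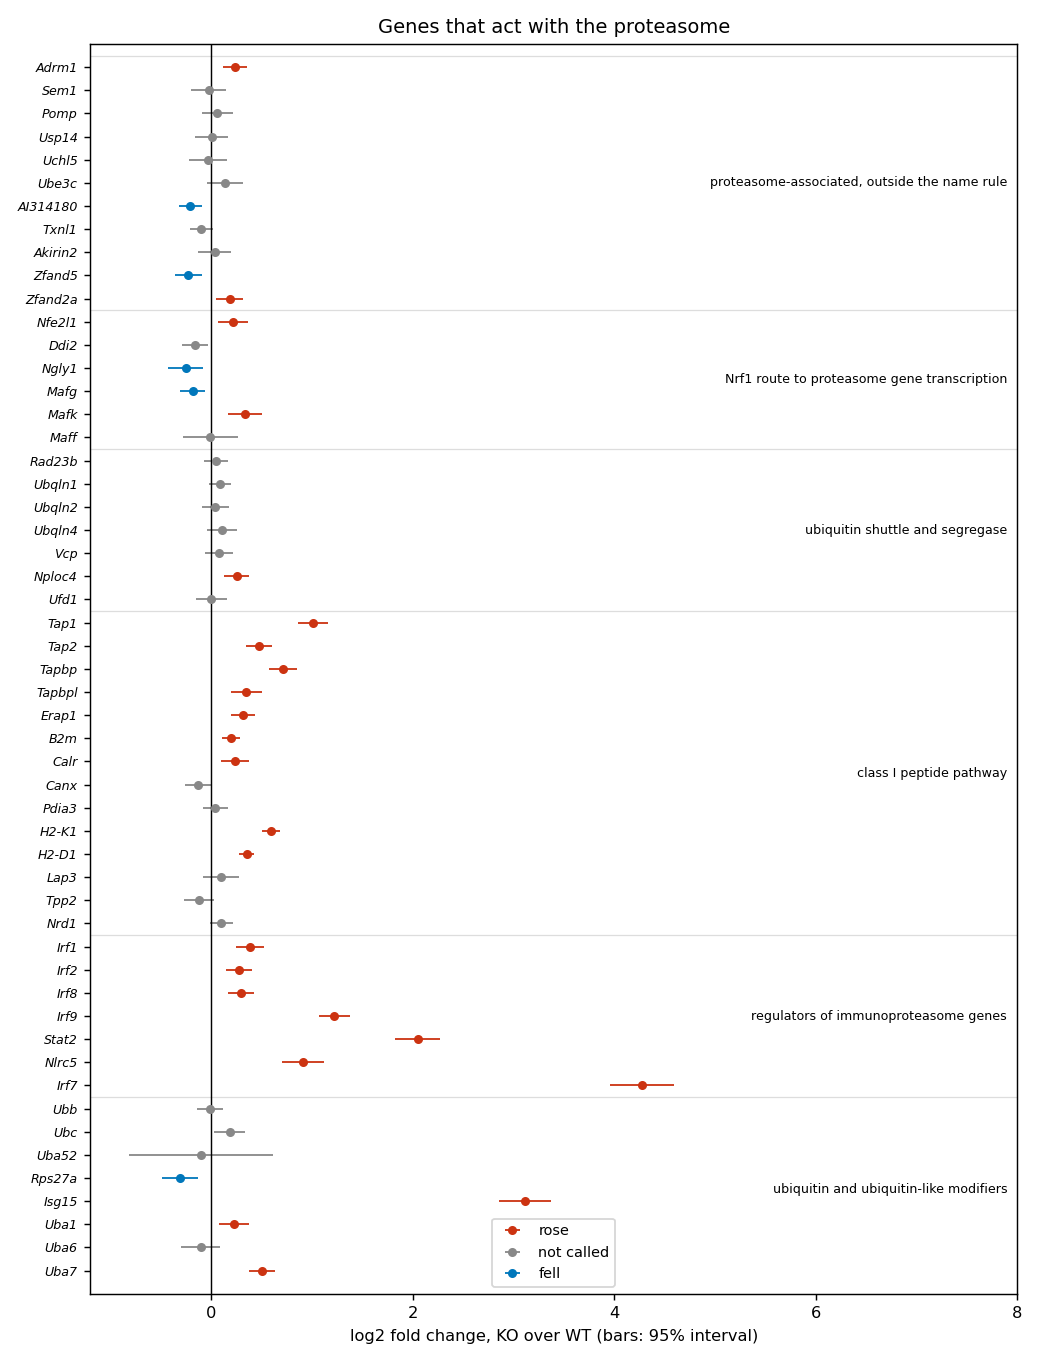
Log2 fold change of KO over WT (x axis) of tested genes that act with the proteasome, in 6 lists, with bars for the 95% interval and colour for the call. All 7 genes listed as regulators lie to the right of 0, from 0.28 to 4.28, whereas proteasome-associated genes lie on both sides.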

How the data were processed

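The deposited table gave unnormalized read counts for each gene symbol. Per the submitters' processing notes, reads were placed on mm10, and TopHat2, HISAT2, HISAT, SAMtools, HTSeq and DESeq2 were named. Their roles, the annotation and the strand setting are not given in the sources here. Of 30587 rows, 47 shared 23 repeated symbols, and the most read row of each was taken as that gene.

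Rows kept by filterByExpr (minimum count 10), 13249 in all, were scaled with TMM and tested with edgeR 4.0.16 in R 4.3.3 on genotype alone. The SE is the log2 fold change divided by the square root of F. Alternatives used limma 3.58.1 and DESeq2 1.42.0. Whether replicates are separate mice or cultures is not stated, so the p-values cover only library-to-library spread, possibly technical. No 2 replicates agreed within sampling noise (chi-square per degree of freedom at least 4.1).

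Coordinates, exon overlaps and lengths came from GENCODE M21, which held 98.5% of tested rows. The principal length is that of the longest protein-coding APPRIS principal transcript. Members, lists and tests were chosen with earlier results of these data known. The naming rule took the 5 induced genes and their counterparts, and in every other role and list up to 4 called genes by lowest p, or the gene with the lowest p. Some list genes are not reported here and are left out of the list counts. The analysis scripts were tested on simulated data.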

Additional observations from a re-analysis of the deposited data

How the results depend on the processing

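Calls on the 5 immunoproteasome and PA28 genes were kept under all 16 alternatives, with log2 fold changes from 0.24 to 0.48. Of 25 named members, 17 kept their side of the threshold throughout, 4 lost the call in some fits and 4 gained one, and none changed sign. Of 21 named genes outside the rule, 13 kept it and 8 lost it in some fits. With the GC and length offset, 24 members rose in place of 15, while over all genes 1854 rose in place of 1826, and without WT 2 and KO 1, 2 members fell in place of 1 (Psmd8 and Psma8). With each library left out in turn, 11 to 15 members rose and 1 to 2 fell, and over all genes 1182 to 1992 rose and 945 to 1622 fell, where 1586 fell with all libraries. The lowest counts were those without KO 3, and without WT 1 1027 fell. The cause was not tested.

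Deviations of same-numbered WT and KO libraries from their group means had correlations of 0.015, -0.11 and 0.08 for numbers 1, 2 and 3. Those of unlike-numbered libraries ran from -0.21 to 0.184. Such values cannot show whether the numbers pair samples, and the labels do not say so. With the number as a replicate block, 13 members rose and 1 fell (Psmd2 and Psmc3ip were not called, nor were Ngly1 and Zfand2a of the lists), 5 of 5 induced genes rose, and over all genes 1741 rose and 1506 fell. The ratio differences with this pairing were 0.14, 0.13 and 0.36. Scaling to library size only moved the median of all genes to 0.02 and that of the members to 0.16. With no filter on low counts, the median of all genes was -0.117. The median SE of a member's log2 fold change was 0.065, which limits how small a change could be detected.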
